A study of Mus musculus with 4 samples.

Results

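Carbonic anhydrases are zinc enzymes that turn carbon dioxide and water into bicarbonate and a proton, and the reverse. In salivary glands (SGs) they supply bicarbonate, the main buffer of saliva, and some isozymes reach the saliva or the cell surface and act there. Members differ in where they work, in the cytosol, in mitochondria, on the outer membrane or outside the cell, and a few have lost the enzyme activity and are known as carbonic anhydrase-related proteins.

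The genes described are 10 members of this family, Car2, Car3, Car4, Car6, Car8, Car9, Car11, Car12, Car13 and Car14, of 34844 genes named on a mouse array. They were chosen by name, as the non-control probes annotated with 1 of these symbols, which gave 12 of 55681 probes. The other 6 family genes on the array, Car1, Car5a, Car5b, Car7, Car10 and Car15, are given beside them.

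The study examined SGs of mice without MyD88, the adaptor that carries signals from Toll-like receptors. The 4 arrays held RNA of female C57/BL6 mice aged 10 weeks, 2 labelled Myd88-null (written Myd88-/-) and 2 labelled wild type (Myd88+/+), with no treatment named, and the labels name submandibular and sublingual glands together as the source (SMGs and SLGs). The study's text instead names whole SMGs as the tissue of its arrays and a larger number of samples a genotype, so whether SLGs were in these samples is not settled here. According to the study's methods, the null line had been backcrossed to the wild-type strain, both genotypes were offspring of heterozygous parents, and lymph nodes, connective tissue and fat were dissected away. Nothing states that the 2 arrays of a label come from separate mice, so p-values measure only the spread between these samples, which may be technical.

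All 4 arrays lay on 1 slide and came from 1 scan. The share of probes well above background ran from 52.2% to 74.2%, differed as much within a label as between the labels, and no spot was saturated. Under the null label the probe of Myd88 gave 1.51 and 1.41, and under the wild-type label 1.15 and 1.07 (log2 signal relative to the 75th percentile of the array, the scale of every level below). It was thus not lower under the null label (difference 0.35, limma adjusted p = 0.264), and whether it lies in the deleted part of the gene was not tested, so the labels were not checked by it. Genotypes below are those of the labels. In whole glands, fewer cells of a type and less RNA per cell cannot be told apart.

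The probes that carry the results are shown by stretches of 30 of their 60 bases, with AATAAA and ATTAAA, the letters of polyadenylation signals, in capitals. The Car4 pair is shown because these probes gave different results, the Car8 pair because both were measured, and the others because the labels did not overlap there. Each is written 5′ to 3′ as in the array files, with the probe's place in the NCBI37/mm9 build.
Car6, base 1274 of its transcript, chr4:149561160-149561219, minus strand: gccgaaaaaagaaaaccattcaccttgatc
Car4, base 470, chr11:84777667-84777726, plus strand: tgcacctgcactggtcaaatgggaatgaca
Car4, base 1230, chr11:84779487-84779546, plus strand: ccaATTAAAtgaAATAAAatatggatatgt
Car3, base 936, chr3:14871781-14871840, plus strand: acatgcaaccgcagtgccttttgacatgat
Car14, base 1429, chr3:95701859-95701918, minus strand: ggctgagcctttggccttcaaagctgtgga
Car9, base 1879, chr4:43526518-43526577, plus strand: ttgaatgctgggattacaggaatgcaccat
Car8, base 3757, chr4:8070545-8070604, minus strand: atctgattcagaatagaaacattactgtgt
Car8, base 5645, chr4:8068657-8068716, minus strand: ttagcactcctttatagtgacctaattaca
Car7, base 655, chr8:107072897-107072956, plus strand: tactggacctatcctggctccctgaccaca

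Of the 12 member probes, 2 held AATAAA or ATTAAA on the strand written, those of Car4 at base 1230 and of Car13, against 13.7% of all 55681 probes. The letters are a description of the probe and show no site in use. The longest run of bases that 2 member probes shared was 11, between Car9 and Car14. On either strand, 10 of the 12 shared no run of 16 bases with a probe of another gene, and the first Car8 probe and the Car12 probe each shared one with 1 other probe. Whether a probe lies in an exon of the coding part or in an untranslated part was not analysed here.

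All 12 member probes were well above background on all 4 arrays. No member passed the adjusted threshold of 0.05 in the limma fit, which called 0 of 22312 genes (0%). At an unadjusted p under 0.05 there were 3 of 10 members, Car4 and Car6 higher and Car3 lower under the Myd88-/- label, against 16.7% of all genes tested (9.82% higher, 6.83% lower). For 5 of 10 members there was no overlap between the labels, Car4, Car6 and Car9 higher and Car3 and Car14 lower, against 52% of all genes (33.2% higher, 18.7% lower). No member differed 2-fold or more, against 4.79% of all genes. With arrays left out in turn, the count of 3 became 0 without Myd88-/- array 1 or without Myd88+/+ array 2, 1 without Myd88+/+ array 1, and stayed 3 without Myd88-/- array 2. The median of the members' log2 differences (Myd88-/- minus Myd88+/+) was 0.08 and the median of their sizes 0.149, beside 0.06 and 0.195 over all genes tested. No test set these counts apart from the background. Of the genes called without adjustment, 59.0% were higher under the Myd88-/- label. That share was 46.7% with the 75th percentile over detected probes and 41.5% with cyclic loess. With median scaling it was 24.1%. There limma gave every family gene tested the same SE (0.54), so that share is not comparable with the others.

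**Figure D1:**
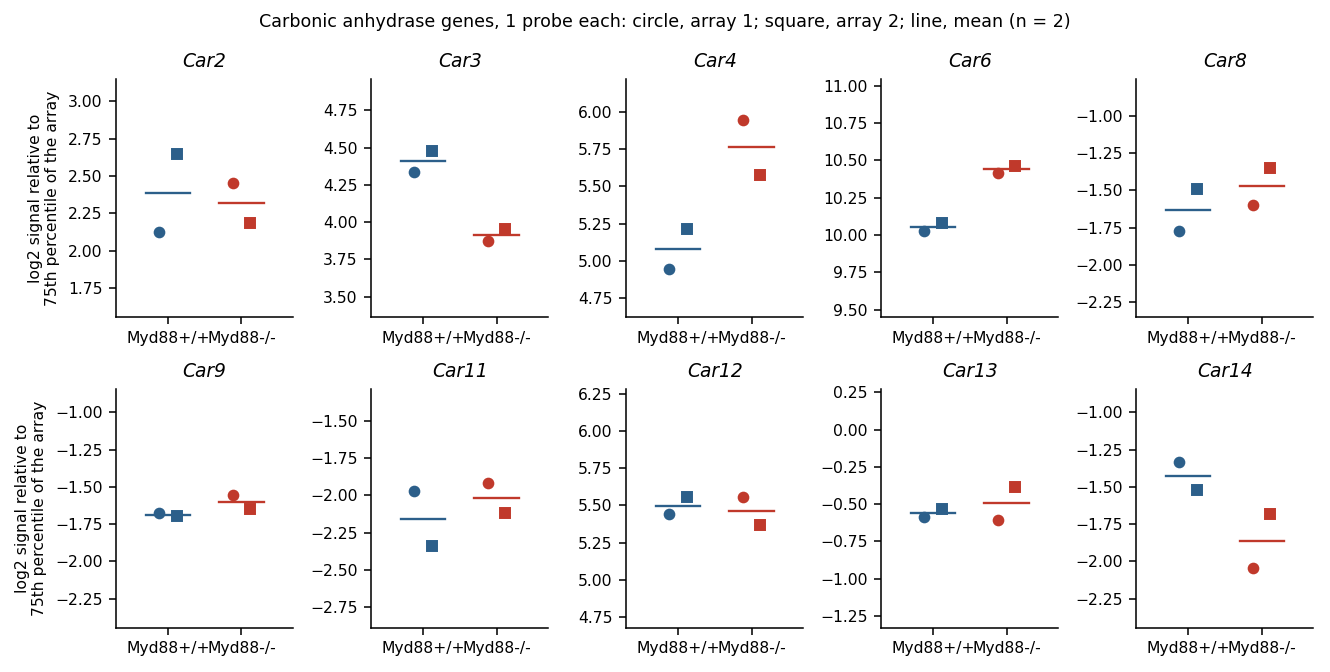
Log2 signal of each member relative to the 75th percentile of the array, by label, with a circle for array 1, a square for array 2 and a line at the mean (n = 2). Every panel spans the same range of log2 units, so spreads can be compared between panels while levels cannot. The arrays of the labels lie apart for Car3, Car4, Car6, Car9 and Car14.

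Car6 encodes the secreted isozyme, which acinar cells release into saliva. Its level was 10.42 and 10.46 on the Myd88-/- arrays and 10.03 and 10.08 on the Myd88+/+ arrays. On this scale both Myd88-/- arrays lay above both Myd88+/+ arrays, with little spread inside either label. The processed signals before scaling overlapped, with 350986 and 334305 under Myd88-/- and 335548 and 290805 under Myd88+/+. The separation of the labels for Car6 thus rests on the scaling between arrays. The log2 difference was 0.39 (SE 0.10, 95% interval 0.11 to 0.67, 1.31-fold), which did not pass after adjustment (limma adjusted p = 0.233). It passed with trended and robust moderation (adjusted p = 0.0425), while quantile normalization left a difference of 0.10 and cyclic loess one of 0.23.

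Markers of gland cells were measured on the same arrays. The submandibular acinar list had 6 of 6 genes tested, with a summed level (signals as multiples of the 75th percentile) of 2611 and 2225 under Myd88-/- and 1968 and 1967 under Myd88+/+. Its members went both ways: Smgc, a neonatal and intercalated duct secretory product, had a log2 difference of 1.57 (limma adjusted p = 0.194), and Smr3a, a salivary propeptide, one of -1.86 (adjusted p = 0.283). Smgc is part of the sum, with levels of 10.08 and 9.95 against 8.33 and 8.56. The median level of the list was 7.71 and 6.86 under Myd88-/- and 7.57 and 7.71 under Myd88+/+, with overlap. The parotid gland list had 7 of 7 tested, with summed levels of 3454 and 2284 against 3788 and 3676. Cst10 (-2.53), Prh1 (-2.41) and Prb1 (-2.29) had its largest differences, all lower, while 2 of the 7 differences were positive, those of Lpo, a salivary peroxidase (0.44), and Prol1 (0.37), both higher without overlap. Prol1 also stands in the submandibular acinar list, there as Muc10, so it is part of both sums and is not a marker of the parotid gland alone. The levels of Cst10, Prh1 and Prb1 on Myd88-/- array 1 lay between those of array 2 and the Myd88+/+ arrays. Over the same Myd88-/- arrays the SD of Car6 was 0.03, and that of Cst10 was 1.54. The sublingual gland list, with 6 of 6 tested, had summed levels of 4973 and 5062 against 3988 and 4253. Dcpp2 (0.34), Dcpp3 (0.32) and Dcpp1 (0.30), its brightest genes, were higher without overlap (33.2% of all genes were). For its other genes the labels overlapped, and 1 of them had a negative difference. The part of these gland cells in the Car6 difference was not tested.

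On the outer cell surface, Car4, Car9, Car12 and Car14 act on carbon dioxide and bicarbonate outside the cell. Car4 is held there by a lipid anchor, and the others cross the membrane. The Car4 probe at base 1230, the brighter one and therefore the one that stands for the gene, gave 5.95 and 5.58 under Myd88-/- and 4.95 and 5.21 under Myd88+/+. Both Myd88-/- arrays lay above both Myd88+/+ arrays. The log2 difference was 0.68 (SE 0.19, 95% interval 0.13 to 1.23, 1.60-fold; limma adjusted p = 0.251).

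The Car4 probe at base 470 gave -2.05 and -0.995 under Myd88-/- and -0.92 and -1.25 under Myd88+/+. Here the labels overlapped, with Myd88-/- array 1 lowest of all. Its log2 difference was -0.44 (SE 0.42, limma over all probes, adjusted p = 0.673), opposite in sign to that of the other probe. Their mean gave 0.12 for the gene (limma adjusted p = 0.756), so the direction for Car4 rests on the probe at base 1230. That mean weighs both probes alike. The one at base 470 minus the one at base 1230 was on average -7.28 log2 units under Myd88-/- and -6.16 under Myd88+/+. Myd88-/- array 1 was both the highest array for one probe and the lowest for the other. Without it the difference of the probe at base 1230 was 0.50.

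**Figure D2:**
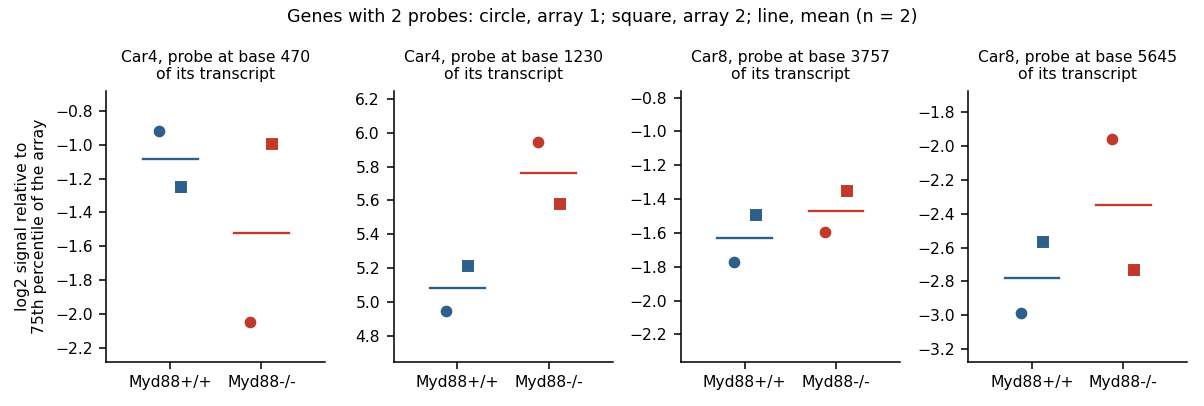
Log2 signal relative to the 75th percentile of the array for each probe of Car4 and Car8, by label, with a circle for array 1, a square for array 2 and a line at the mean (n = 2). The labels lie apart for the Car4 probe at base 1230 and overlap for the one at base 470, and the Car8 probe at base 5645 has Myd88-/- array 1 above the other arrays.

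Car14 encodes a membrane isozyme known from kidney, liver and brain. It was measured at -2.04 and -1.68 under Myd88-/- and -1.33 and -1.52 under Myd88+/+. Both Myd88-/- arrays were lower, but the nearest arrays of the labels lay close together and the spread inside Myd88-/- was wider. The difference was -0.44 (SE 0.18, 95% interval -0.94 to 0.07; limma adjusted p = 0.340), and it was -0.20 with normexp background correction.

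Car9 encodes a membrane isozyme that hypoxia is known to induce. Its level was -1.55 and -1.65 under Myd88-/- and -1.68 and -1.70 under Myd88+/+. The labels did not overlap, yet the whole range over the 4 arrays was narrow, and the difference was 0.09 (95% interval -0.20 to 0.38; limma adjusted p = 0.709). The hypoxia target list had 14 of 14 genes tested, of which 1 (Slc2a1) was higher and 1 (Ldha, a glycolytic enzyme, -0.38) lower at an unadjusted p under 0.05, beside 16.7% of all genes in either direction, with a median log2 difference of 0.02 beside 0.06 over all genes. Its largest differences were those of Slc2a1, a glucose transporter (0.77, limma adjusted p = 0.250), Ddit4, an inhibitor of growth signalling (0.56, adjusted p = 0.379), and Egln1, an oxygen-sensing hydroxylase (0.40, adjusted p = 0.397).

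Car12 encodes the membrane isozyme found on many secretory epithelia. It was measured at 5.56 and 5.37 under Myd88-/- and 5.44 and 5.55 under Myd88+/+. The labels overlapped, and the difference was -0.03 (95% interval -0.39 to 0.32; limma adjusted p = 0.920). That interval does not show that the labels were alike, and differences within it were not detectable with 2 arrays a label.

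Among the cytosolic isozymes, Car2 is the fast and widespread one, Car3 a slow one abundant in muscle, fat and liver, and Car13 a more recently described one. Car2 gave 2.45 and 2.19 under Myd88-/- and 2.12 and 2.65 under Myd88+/+. Both Myd88-/- arrays fell between the Myd88+/+ arrays, with a difference of -0.07 (SE 0.23, 95% interval -0.74 to 0.60; limma adjusted p = 0.914). Car2 had the widest spread inside the Myd88+/+ label among the 10 members (SD 0.37), so its interval is also the widest.

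Car3 gave 3.88 and 3.95 under Myd88-/- and 4.34 and 4.48 under Myd88+/+. Both Myd88-/- arrays were lower than both Myd88+/+ arrays. The log2 difference was -0.49 (SE 0.11, 95% interval -0.81 to -0.17, 0.711 of the Myd88+/+ level), and it did not pass after adjustment (limma adjusted p = 0.217). It kept its sign under all 16 other ways of processing the arrays, from -0.58 to -0.42. Several of these, such as another moderation, test or block, cannot change the difference. Since the labels did not overlap, leaving out an array could not turn its sign.

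Markers of muscle and fat, tissues where Car3 is abundant, were lower under the same label. In the skeletal muscle list 14 of 15 genes were tested, of which 6 passed the filter through the Myd88+/+ arrays alone and so had to be lower under Myd88-/-. The other 8 were well above background on all 4 arrays. Of these 8, 8 were lower without overlap (18.7% of all genes were) and 6 at an unadjusted p under 0.05 (6.83% of all genes were). The summed level of the 14 was 4.59 and 4.86 under Myd88-/- and 28.1 and 150.0 under Myd88+/+. Myh4, a fast myosin heavy chain, was well above background on neither Myd88-/- array and was at least 218-fold lower there (limma adjusted p = 0.194), and Tnnc2 (-5.99) and Tnni2 (-5.07), fast troponin subunits, were next. In the adipocyte list 10 of 11 were tested. Of these, 9 were lower without overlap (18.7% of all genes were) and 4 at an unadjusted p under 0.05 (6.83% of all genes were). The median log2 difference of the list was -0.80, with summed levels of 174 and 272 against 374 and 371. Lep, the fat hormone leptin, was well above background on no array, and Pparg, a regulator of fat cell formation, Plin1 and Plin4, coats of lipid droplets, differed by -1.17, -1.09 and -0.96. Over the Myd88+/+ arrays the SD of Car3 was 0.10, the muscle sums were 28.1 and 150.0, and the adipocyte sums were 374 and 371. The part of muscle or fat in the Car3 difference was not tested.

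Car13 gave -0.61 and -0.38 under Myd88-/- and -0.59 and -0.53 under Myd88+/+. The Myd88+/+ arrays lay between the Myd88-/- arrays, and the difference was 0.06 (95% interval -0.30 to 0.43; limma adjusted p = 0.831). The probes of Car13, Car1, Car3 and Car2 lie within 237934 bases of chromosome 3 (chr3:14662332-14900265, NCBI37/mm9). Of these 4 neighbours, Car3 alone had arrays that did not overlap between labels, beside 52% of all genes tested.

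Car8 and Car11 encode related proteins without the enzyme activity, and Car8 is known to bind the IP3 receptor that releases calcium from stores. The Car8 probe at base 3757 gave -1.60 and -1.35 under Myd88-/- and -1.77 and -1.49 under Myd88+/+, with overlapping labels. Its difference was 0.16 (95% interval -0.31 to 0.63; limma adjusted p = 0.674). The probe at base 5645 gave -1.96 and -2.73 against -2.99 and -2.57, also overlapping, with a difference of 0.43 (limma over all probes, adjusted p = 0.609). The sign was the same for both, and for neither was the difference larger than the spread.

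Car11 gave -1.92 and -2.12 under Myd88-/- and -1.97 and -2.34 under Myd88+/+. The labels overlapped, and the difference was 0.14 (95% interval -0.38 to 0.65; limma adjusted p = 0.743). Of the 3 IP3 receptor genes, Itpr2 gave a log2 difference of -0.37 (limma adjusted p = 0.289), Itpr1, the known partner of Car8, -0.20 (adjusted p = 0.427) and Itpr3 0.08 (adjusted p = 0.716). In each of these 3 genes the labels lay apart, lower for Itpr1 and Itpr2 and higher for Itpr3, beside 52% of all genes.

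**Figure D3:**
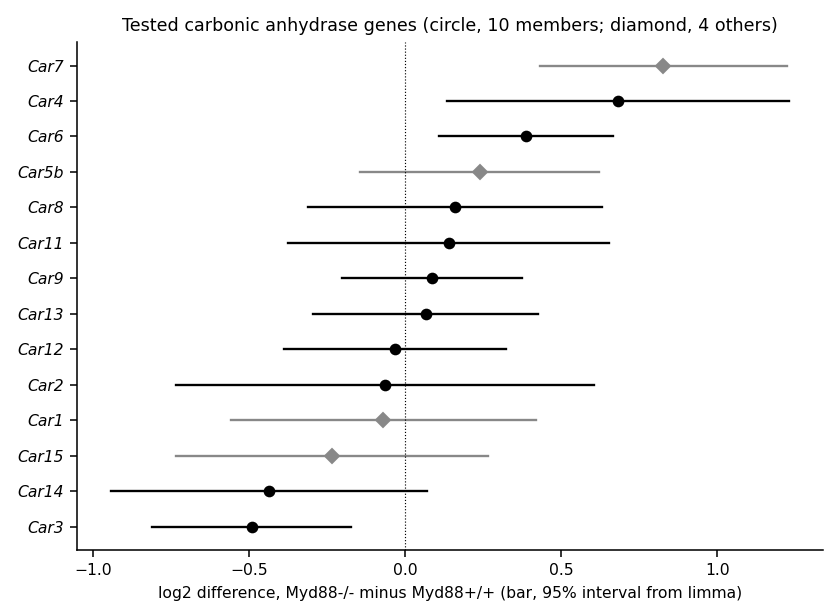
Log2 difference (Myd88-/- minus Myd88+/+) of the 14 carbonic anhydrase genes tested, with bars for the 95% interval of limma, black circles for members and grey diamonds for other family genes. The intervals of Car3, Car4, Car6 and Car7 leave out 0, and those of the other 10 genes hold it. None passed after adjustment over 22312 genes.

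Outside the 10 members, Car7 had the largest difference among the family genes tested. It encodes a cytosolic isozyme best known from brain and muscle, and its level was 5.38 and 5.22 under Myd88-/- and 4.36 and 4.59 under Myd88+/+. Both Myd88-/- arrays were higher, with a gap wider than the spread inside either label. The difference was 0.83 (SE 0.14, 95% interval 0.43 to 1.22, 1.77-fold; limma adjusted p = 0.199), and it passed with trended and robust moderation (adjusted p = 0.0365).

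Car5b, a mitochondrial isozyme, gave -2.44 and -2.22 under Myd88-/- and -2.49 and -2.63 under Myd88+/+, higher without overlap (difference 0.24, limma adjusted p = 0.451). Car15, a lipid-anchored isozyme of the mouse, gave 0.88 and 0.88 against 0.91 and 1.32, lower without overlap (difference -0.23, limma adjusted p = 0.557). Car1, the isozyme of red blood cells, gave -1.62 and -1.92 against -1.82 and -1.57 with overlap (difference -0.07, limma adjusted p = 0.869), from the 1 of its 2 probes that was tested. The erythroid list had 5 of 8 genes tested, all with a positive difference (59.6% of all genes did; median 0.26). Of these, 1 was higher without overlap (33.2% of all genes were) and 0 had an unadjusted p under 0.05. The summed levels were 222 and 124 against 152 and 127, with overlap. Car5a, the other mitochondrial isozyme, was well above background on 1 array and was not tested, and neither were the 4 probes of Car10, a related protein without activity, which were well above background on 0 to 2 arrays.

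**Figure D4:**
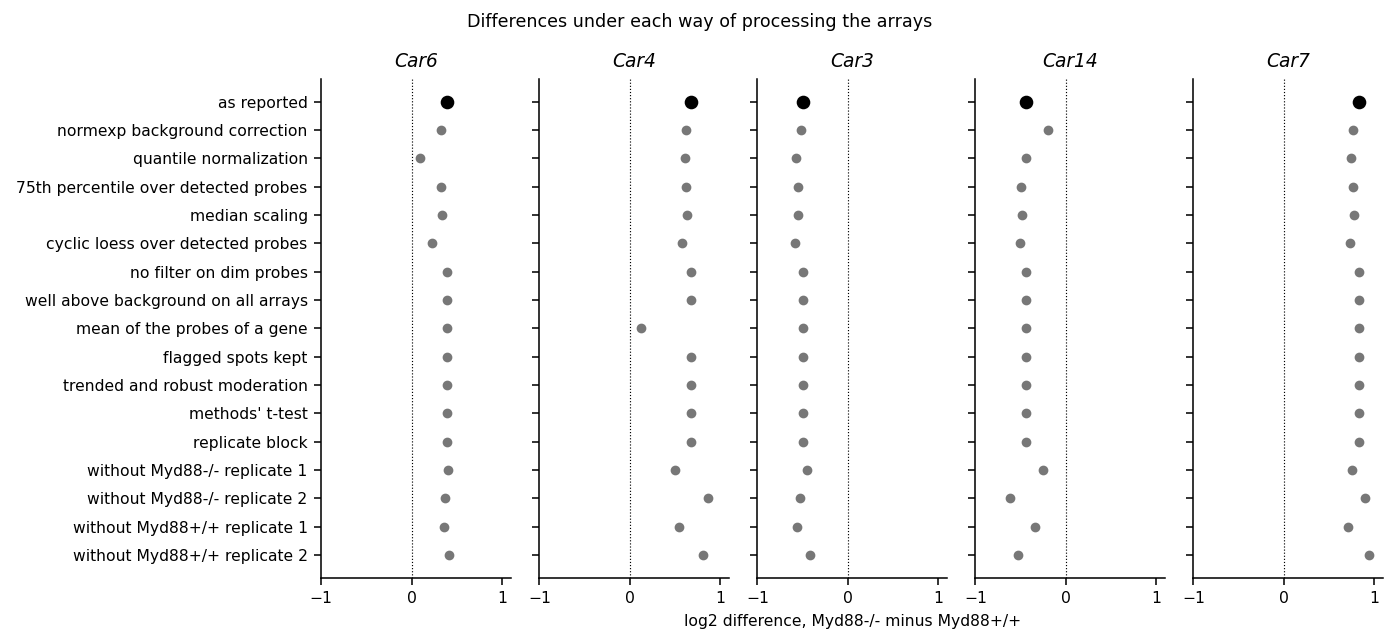
Log2 difference (Myd88-/- minus Myd88+/+) of Car6, Car4, Car3, Car14 and Car7 as reported (black, top) and under each of 16 other ways of processing the arrays (grey). Every point of a gene lies on the same side of 0, and the points nearest to 0 are quantile normalization for Car6 (0.10), the mean of both probes for Car4 (0.12) and normexp background correction for Car14 (-0.20). Another moderation, test or block cannot move a point, and leaving out an array cannot turn the sign of these genes, whose labels did not overlap.

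Carriers that move bicarbonate across the membrane work beside these enzymes. Of 16 bicarbonate transporters 11 were tested and 2 were well above background on no array. There were 9 positive and 2 negative differences, 3 of them higher at an unadjusted p under 0.05 (9.82% of all genes were) and none after adjustment, with a median of 0.18 on the log2 scale. Slc4a2, the chloride-bicarbonate exchanger of the basolateral membrane, gave 7.36 and 7.09 under Myd88-/- and 6.32 and 6.50 under Myd88+/+, higher without overlap (0.82, SE 0.15, 1.76-fold; limma adjusted p = 0.203).

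Slc26a7, another anion exchanger, gave -1.94 and -1.76 against -2.86 and -2.73, also higher without overlap (0.95, SE 0.13, 1.93-fold; limma adjusted p = 0.194). Slc4a4, the sodium-bicarbonate cotransporter that brings bicarbonate into cells, gave -2.02 and -0.94 against -0.77 and -0.39. It was lower without overlap but with a wide spread inside Myd88-/- (-0.91, SE 0.43; limma adjusted p = 0.391). The carriers named thus did not go 1 way.

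Sodium-proton exchangers remove the proton that the enzyme reaction leaves in the cell. Of 11 such genes and their regulators 9 were tested and 1 was well above background on no array. The median log2 difference of those tested was 0.14, and none passed after adjustment. Slc9a4 gave -0.34 (adjusted p = 0.385) and the scaffold gene Slc9a3r1 0.30 (adjusted p = 0.326).

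In the saliva fluid secretion list 11 of 11 genes were tested, 10 had a positive difference (59.6% of all genes did) and 3 were higher at an unadjusted p under 0.05 (9.82% of all genes were), with a median of 0.26, or 0.15 with cyclic loess. Slc12a2, the cotransporter that loads acinar cells with chloride, gave 7.42 and 7.31 against 6.94 and 6.95 without overlap (0.42, SE 0.10; limma adjusted p = 0.226). Kcnma1, a potassium channel, gave 2.14 and 1.76 against 1.43 and 1.33 without overlap (0.58, SE 0.17; limma adjusted p = 0.262). Chrm1, a muscarinic receptor, gave -1.76 and -2.11 against -2.74 and -2.11, with overlap (0.49, limma adjusted p = 0.458).

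Duct markers were measured as well, since ducts hold several carbonic anhydrases and bicarbonate carriers. The list had 6 of 7 genes tested, 5 with a positive difference (59.6% of all genes) and 3 higher at an unadjusted p under 0.05 (9.82% of all genes). Its summed level was 331 and 350 under Myd88-/- and 235 and 237 under Myd88+/+, most of it Krt18, and without Krt18 it was 25.7 and 23.0 against 17.6 and 20.5. Krt19, another keratin, was lower without overlap (-0.28, limma adjusted p = 0.348). Krt18 (0.54, limma adjusted p = 0.204) and Krt7 (0.37, adjusted p = 0.299), keratins, and Scnn1a (0.49, adjusted p = 0.251), a sodium channel subunit, had its largest differences. The part of duct cells in the differences of Car4, Car7 and Slc4a2 was not tested.

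**Figure D5:**
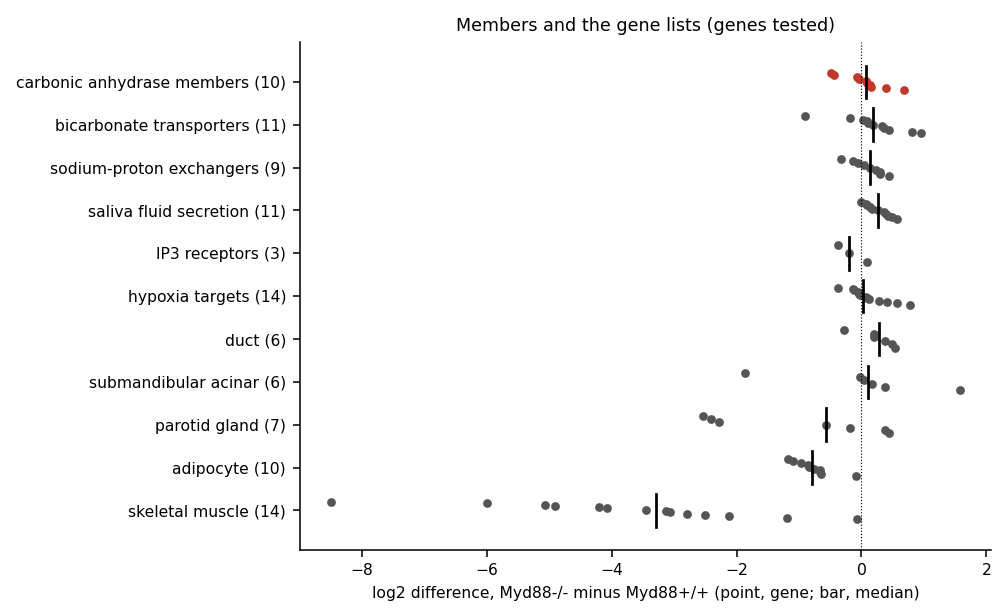
Log2 difference (Myd88-/- minus Myd88+/+) of each tested gene of the members and of 10 gene lists, 1 point a gene, with a bar at the median and the number of genes tested in brackets. The members lie between -0.49 and 0.68 with a median of 0.08, and the skeletal muscle list reaches -8.49 for Myh4, which was well above background on neither Myd88-/- array, so that this fitted value is no bound.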

How the data were processed

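The authors deposited scanner output of 4 one-colour Agilent arrays, hybridised with Cy3-labelled cRNA from 100 ng of total RNA and read with Feature Extraction 10.7.3.1. The authors deposited a processed signal per spot, an intensity from which their scanner software had removed background, and which was not normalized between arrays. The array names genes and places probes on NCBI37/mm9. A processed table of the whole series has 4 columns that match no sample's label and were not used.

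From these files, the log2 processed signal of 59305 non-control spots per array was taken minus the array's 75th percentile, spots flagged as outliers were dropped and repeat spots averaged. Testing required a probe to be well above background (in over 0.5 of its spots) on both arrays of 1 label or the other. Where several probes of a gene passed, the brightest was used. A fold given as "at least" sets the dim label at the lowest signal among probes well above background on each array, or at the probe's own if higher. The labels were compared in limma 3.58.1 (lmFit, then eBayes) under R 4.3.3. P-values were adjusted by Benjamini-Hochberg over 22312 genes, at a threshold of 0.05. The procedure was tested on simulated data with noise drawn separately for each gene. Deviations shared by the genes of an array were not part of it. With 2 arrays a label, an exact permutation test of 1 gene cannot give a two-sided p below 0.333, so none was used, and this number of arrays limits the precision.

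Named genes are all family genes, Myd88 and at most the 3 largest differences of each other list, and Lep, Ldha, Krt19, Lpo and, in the parotid gland list, Prol1 were named after their values were seen. Some genes of these lists are not reported here. The members and the 19 gene lists were chosen with earlier results of these data known. Arrays of the same replicate number did not deviate together (correlation -0.373), so they were not paired. With 2 arrays a label, the crossed pairs must then give the same size with the other sign (0.373). Those pairs were also nearer in the share of probes well above background. Myd88-/- array 1 had 52.2% and Myd88+/+ array 2 55.1%, and Myd88-/- array 2 had 68.4% and Myd88+/+ array 1 74.2%. The analysis was repeated in 16 other ways, which changed background correction, scaling, filter, choice of probe, moderation, test, block, or left out an array, and 1, crossed pairing, was added after seeing the data.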

Additional observations from a re-analysis of the deposited data

How the results depend on the processing

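The log2 differences of Car3, Car4, Car6, Car8, Car9, Car14, Car5b, Car7 and Car15 kept their sign under the 16 other ways of processing, but single arrays moved some of them by over 1.5 times. Another moderation, test or block cannot change a difference. Leaving out an array cannot turn the sign where the labels do not overlap, as for all of these genes but Car8. With arrays left out Car15 ranged from -0.44 (without Myd88+/+ array 1) to -0.0330 (without Myd88+/+ array 2), Car8 from 0.0211 (without Myd88+/+ array 1) to 0.30 (without Myd88+/+ array 2; 0.0366 without Myd88-/- array 2 and 0.28 without array 1), Car9 from 0.0402 (without Myd88-/- array 1) to 0.13 (without array 2), Car5b from 0.13 (without Myd88-/- array 2) to 0.35, and Car14 from -0.62 to -0.26 (without Myd88-/- array 1). Values that changed sign with an array left out, given as the range over the arrays left out, were those of Car2 (-0.33 to 0.20), Car11 (-0.0473 to 0.33), Car12 (-0.13 to 0.0621), Car13 (-0.0466 to 0.18) and Car1 (-0.22 to 0.0795). Without Myd88-/- array 2 the sign turned for Car2, Car12, Car13 and Car1, and without Myd88+/+ array 2 for Car2, Car11, Car12 and Car1. With normexp Car1 gave 0.0278, and the cause was not tested. The count of members, and of member probes, past the adjusted threshold went from 0 to 1 (Car6) with trended and robust moderation. Over all genes it went from 0 to 482 with that moderation, 79 with normexp, 402 with median scaling and 1 with the methods' t-test, which called 2935 genes and 2 members without adjustment. At an unadjusted p under 0.05, 3 members and 3 member probes became 0 and 0 with median scaling, member probes became 1 with no filter, and with arrays left out both ranged from 0 to 3. Over all genes, 3715 became 995 with median scaling and ranged from 2192 to 3033 with arrays left out. A lone array left in a label is assumed to vary like the other label. With median scaling, limma gave every family gene tested the same SE (0.54), so its counts of calls are not comparable with the others. The differences of Car3 (-0.545), Car4 (0.63) and Car6 (0.33) stayed near those reported.

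With the replicate number as a block, the calls at an unadjusted p under 0.05 were 1 member (Car3), 1 member probe and 2410 genes, and 0 after adjustment. Crossed pairing, added after seeing the data, gave 4 members, 4 member probes and 4157 genes without adjustment and 0 with it.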

Other observations

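Other markers were measured on the same arrays. At an unadjusted p under 0.05, the B cell list had 4 of 4 tested genes lower under the Myd88-/- label (2 of 2 among those well above background on all arrays, the other 2 having passed the filter through the Myd88+/+ arrays alone), with summed levels of 1.28 and 1.09 against 13.0 and 6.72, and the T cell list 4 of 6 (2 of 3 on all arrays), with 4.14 and 5.17 against 15.3 and 9.72. The endothelium list had 1 higher and 4 lower of 8 tested (median log2 difference -0.23). The Schwann cell list had 1 lower of 6 (median -0.12), the macrophage list 1 higher of 7 (median -0.01) and the granular convoluted tubule list 1 higher of 10 (median -0.10). Over all genes tested the shares were 9.82% higher and 6.83% lower. No gene of these lists passed limma's adjusted threshold. By flow cytometry, which counts cells by protein, the study reported more B cells and IgA-positive plasma cells in SMGs of male Myd88-/- mice. The RNA of the B cell list went the other way on these arrays, and the reason was not tested.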
